A study of Rattus norvegicus with 6 samples.

Results

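Cytosolic ribosomal protein genes were compared between the hippocampus of Fmr1 KO and WT rats. The genes were taken by symbol, as all names in the count table that begin with Rpl or Rps and a number, together with Rpsa and Rplp0 to Rplp2, without the ribosomal S6 kinases and without names that contain -ps. This gave 85 of the 17455 genes in the table, 35 of the small subunit and 50 of the large subunit. Of these, 76 were core ribosomal proteins and 9 were paralogs or others, among them Rps19bp1, which fits the symbol pattern but encodes a binding partner of Rps19 and not a ribosomal protein. Counts were high enough to test 80 of the 85, of which 33 belonged to the small and 47 to the large subunit.

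The data were RNA-Seq counts of 6 libraries, 3 from Fmr1 KO rats and 3 from WT rats, 1 library per rat. The Fmr1 KO rats carried the LE-Fmr1em2Mcwi allele on the Long Evans background, a line in which Fmr1 is disrupted in every tissue, and the WT rats came from the same cross. All were males aged 10 weeks, and no treatment is named. Per the methods, KO and WT rats were chosen among littermates of this cross, and rats of each litter were assigned to experiments at random. The methods give 1 litter per group for transcriptomics. Whether the sequenced KO and WT rats shared a litter is not stated, so a part of litter in the differences was not tested.

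Each ribosome joins a small subunit, which reads the mRNA, and a large subunit, which makes the peptide bond and lets the new protein out through a tunnel. Most mRNAs of ribosomal proteins begin with a run of pyrimidines, the terminal oligopyrimidine (TOP) start, through which mTOR signalling sets their translation as a group. FMRP, the protein lost in KO rats, is an RNA-binding protein that represses translation and is found on polyribosomes, and in Drosophila it was shown to bind the large subunit near Rpl5.

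Between 9619812 and 13390476 reads per library were counted in genes, with a median of 11856971. Fmr1 stood at 17.4, 13.1 and 11.6 CPM (counts per 1000000 counted reads, with TMM scaling) in KO libraries, against 47.6, 50.6 and 51.6 CPM in WT libraries. Its log2 fold change was -1.83 ± 0.12 (SE; adjusted p = 5.7e-06, edgeR). On the first principal component of all tested genes, which held 28.8% of the variance, the KO libraries lay at 5.49 to 11, WT replicates 1 and 2 at -19.6 and -12.4, and WT replicate 3 at 6.20, among the KO libraries. On the second component, which held 21.7%, WT replicate 3 lay at -12.8 and KO replicate 3 at 20.1, both apart from the other libraries (-4.98 to 1.91). Counts over all ribosomal protein genes, the 2 subunits, mitochondrial ribosomal proteins, oxidative phosphorylation genes and markers of the main hippocampal neurons are given with and without WT replicate 3. The other gene lists are given with all 6 libraries only, and their counts can differ without it. Nothing in the labels marks it as a different batch.

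The pyrimidine start is the sequence feature that these mRNAs are known for, and the starts of members that the results turn on are shown here. A 30-base window in RefSeq's GRCr8 assembly, 10 bases before the annotated start and 20 from the start on, is printed 5′ to 3′ on the strand of the gene, and capitals mark the unbroken run of C and T from the start.
Rps15: acaccgcttcCTTTTCCCagcagccgccaa
Rps7: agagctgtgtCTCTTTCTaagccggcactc
Rpl10a: cttctgccttCTTTTCCggttcccgcagcc
Rpl28: cccctagtgtCTTTCTTTCCgtctccggcc
Rplp1: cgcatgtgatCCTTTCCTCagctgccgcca
Rps23: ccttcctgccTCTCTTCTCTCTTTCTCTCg
Rpl17: ttcgcgcttcCTCTTCCTgttagcggccag

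These windows lie at chr7:10068096-10068125 on the minus strand for Rps15, chr6:50999426-50999455 (minus) for Rps7, chr20:6390523-6390552 (plus) for Rpl10a and chr1:78083513-78083542 (minus) for Rpl28. Those of Rplp1, Rps23 and Rpl17 lie at chr8:71290853-71290882 (minus), chr2:23814507-23814536 (plus) and chr18:70856266-70856295 (plus). The first 6 genes were lower in KO libraries at an unadjusted p under 0.05 and Rpl17 was higher, so a gene of either direction can carry such a start. RefSeq gave a start window for 68 of the 85 genes. A C at the annotated start followed by 4 bases that are each C or T, searched on the strand of the gene at the start alone, was present in 23 of the 68 (33.8%), against 2.63% of all 33469 windows. With the C allowed anywhere within 10 bases of the annotated start, it was present in 50 (73.5%), against 28.9% of all windows. Of the 9 members that were lower at an unadjusted p and had a window, 7 had the C and pyrimidines exactly at the start. Rps23 and Rpl27a, the other two, begin with a T inside a longer pyrimidine run. Of the 55 other tested members with a window, 15 had it exactly at the start. Within 10 bases of the start, it was present in 9 of the 9 lower and 38 of the 55 other members (69.1%). The lower members were picked by p from these same data, and a link between start and fold change was not tested. These are counts of letters at annotated starts, and the starts in use in the hippocampus were not measured here.

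Most ribosomal protein mRNAs had small negative fold changes in KO against WT hippocampus, few passed a test, and Rpl17 was the 1 gene higher at an unadjusted p. Of the 80 tested genes, 69 had a negative log2 fold change (86.2%, against 49.5% of all tested genes), and the median was -0.09, against 0.00 for all 11800 genes tested. An unadjusted p under 0.05 was the cutoff that the study applied, with DESeq2 as its test. At that cutoff in edgeR's quasi-likelihood test, 13 genes were lower (16.2%, against 5.15% of all genes tested) and 1 was higher (1.25%, against 4.19%). None passed an adjusted p of 0.05 in edgeR, where 0.0254% of all genes did, or in DESeq2, where 0.242% did. DESeq2, which tested 83 of the members, gave 16 lower (against 3.24% of all genes) and 1 higher (against 2.55%) at an unadjusted p under 0.05. All KO libraries lay below all WT libraries in 3 of the 80 genes, Rps15, Rpl10a and Rpl27a (3.75%, against 7.52% of all genes), and above in 1, Rpl17 (against 7.19%). In bulk RNA, fewer cells of a type and less RNA per cell cannot be told apart.

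**Figure D1:**
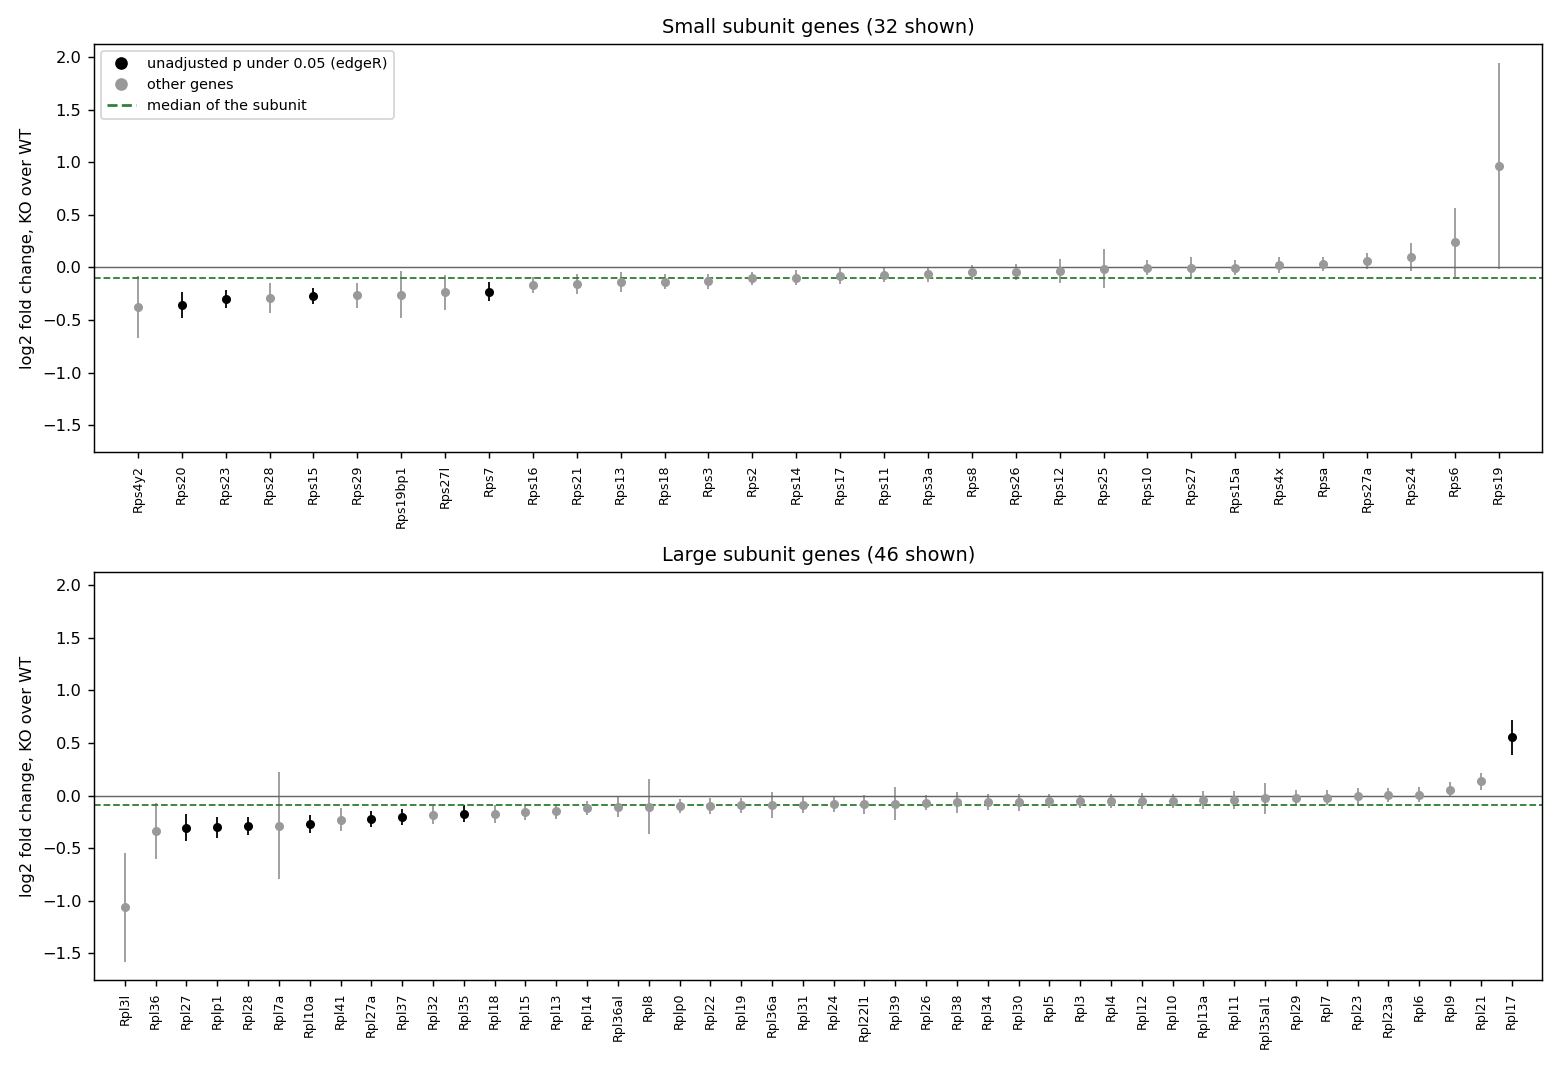
Log2 fold change of KO over WT (vertical axis) with its standard error from edgeR for 32 of the 33 small subunit (top) and 46 of the 47 large subunit genes tested (bottom), sorted by value. Black marks the genes at an unadjusted p under 0.05, and the dashed lines mark the medians over all tested genes of the subunit, -0.10 and -0.09. Most genes sit just below 0, and Rpl17, at 0.55, is the 1 black point above 0.

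The share of all counted reads assigned to these genes was 1.23%, 1.32% and 1.38% in KO libraries, against 1.45%, 1.43% and 1.27% in WT libraries. The groups overlapped, since WT replicate 3 lay between KO replicates 1 and 2. The means were 1.31% ± 0.0745 in KO and 1.38% ± 0.101 in WT libraries (SD, n = 3 each). Counted by gene, 75, 71 and 42 of the 80 genes in KO replicates 1, 2 and 3 lay below their WT mean, against 2, 16 and 77 in WT replicates 1, 2 and 3. KO replicate 1 was the lowest of the 6 libraries for 49 genes and WT replicate 3 for 14. KO replicate 3 was the highest for 17 genes, and WT replicates 1 and 2 for 33 and 28. The highest library was thus WT replicate 1 or 2 for most genes, WT replicate 3 had low values like KO replicates 1 and 2, and KO replicate 3 lay below the WT mean least often of the KO libraries.

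**Figure D2:**
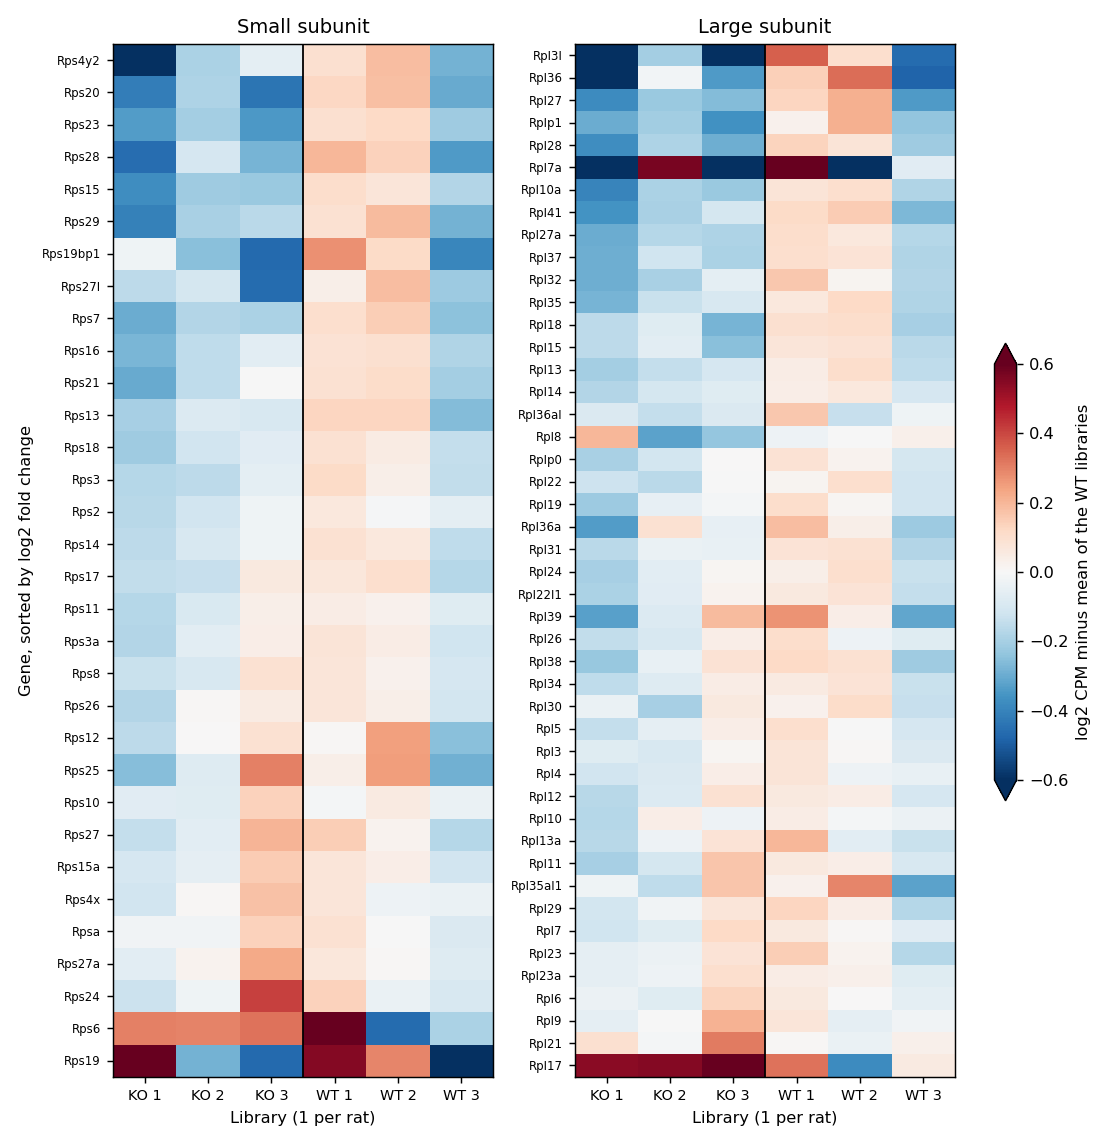
Level of 78 of the 80 tested genes in each library, as log2 CPM minus the mean of the WT libraries, with the KO libraries left of the line and genes sorted by fold change within each subunit. Blue is below and red above the WT mean, and the scale ends at 0.6 either way. KO 1, KO 2 and WT 3 are blue for most genes and WT 1 and WT 2 red.

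Small and large subunit genes gave similar counts and medians. The small subunit had 27 of 33 negative fold changes, 5 genes lower and 0 higher at an unadjusted p, and a median of -0.10. The large subunit had 42 of 47 negative, 8 lower and 1 higher, and a median of -0.09. The mean log2 CPM of the small minus that of the large subunit, set to 0 at the WT mean, was 0.09, -0.03 and 0.02 in KO libraries, against 0.01, 0.04 and -0.05 in WT libraries. The groups overlapped, with means of 0.03 ± 0.06 in KO and 0.00 ± 0.04 in WT libraries (SD, n = 3 each). Without Rps19 and Rpl17, the gene with the highest fold change in each subunit, the values were 0.03, -0.01 and 0.05 in KO libraries, against 0.00, 0.02 and -0.02 in WT libraries. A difference between the subunits was not detectable in 3 against 3 libraries.

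Among small subunit proteins at the decoding site and the mRNA entry, 2 of the 4 tested genes were lower at an unadjusted p (against 16.2% of all tested members and 5.15% of all genes, shares that also stand behind the small groups that follow) and the other two had negative values, with a median log2 fold change of -0.20. Rps15, whose tail reaches the decoding site, stood at 219, 244 and 243 CPM in KO libraries, against 304, 297 and 251 CPM in WT libraries, a log2 fold change of -0.27 with an SE of 0.08 (adjusted p = 0.312, edgeR). Rps23, a protein of the decoding centre, stood at 207, 227 and 206 CPM in KO libraries, against 279, 284 and 226 CPM in WT libraries, a log2 fold change of -0.30. The groups were apart for Rps15, while for Rps23 WT replicate 3 lay within the KO range. Rps2 and Rps3, both at the mRNA entry, had values of -0.10 and -0.13 (adjusted p = 0.639 and 0.564, edgeR).

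At the mRNA exit and platform, 7 of 8 tested genes had negative values and 2 were lower at an unadjusted p, with a median of -0.13. Rps7, one of the lower genes, stood at 234, 255 and 252 CPM in KO libraries, against 309, 319 and 243 CPM in WT libraries, a log2 fold change of -0.23. WT replicates 1 and 2 were its highest libraries and WT replicate 3 lay within the KO range. Rpsa, also known as the laminin receptor, was the 1 gene of this group with a positive value, 0.03. Among the other head proteins, Rps20, which is ubiquitinated on collided ribosomes, stood at 59.5, 69.6 and 58.5 CPM in KO libraries, against 86.2, 89.7 and 64.2 CPM in WT libraries. Its log2 fold change of -0.35 ± 0.12 (SE; adjusted p = 0.432, edgeR) was the most negative of the 13 lower genes, and it was the 1 lower gene of the 9 in this group. Rps19, the gene most often mutated in Diamond-Blackfan anaemia, went with 1 library: its counts were 285, 61 and 38 in KO libraries, against 92, 86 and 37 in WT libraries, and its log2 fold change was 0.96 ± 0.98 (SE).

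In the large subunit stalk, which recruits the translation factors, 3 of 3 tested genes had negative values and Rplp1 was lower at an unadjusted p. Rplp1 stood at 82.2, 87.2 and 78.4 CPM in KO libraries, against 103, 117 and 85.6 CPM in WT libraries, a log2 fold change of -0.30. Rplp0, the base of the stalk, stood at 440.2, 467 and 504 CPM in KO libraries, against 534, 511 and 468 CPM in WT libraries, a log2 fold change of -0.10 (adjusted p = 0.68, edgeR). WT replicate 3 lay within the KO range in both. Rpl10a, which forms the opposite, mobile stalk that guides spent tRNA out, stood at 66.1, 76.4 and 74.6 CPM in KO libraries, against 91.9, 93.4 and 76.9 CPM in WT libraries, a log2 fold change of -0.27. Its groups did not overlap, by a margin of under 1 CPM at WT replicate 3.

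In the group of the peptidyl transferase centre and late joining proteins, which was listed with Rpl10a, 4 of 4 tested genes had negative values and Rpl10a was the 1 lower at an unadjusted p, with a median of -0.08. Rpl3, at the peptidyl transferase centre, and Rpl10, a late joining protein, both had a value of -0.05 (SE 0.06 and 0.07, adjusted p = 0.836 and 0.861, edgeR). Rpl5 and Rpl11, which carry the ribosomal 5S RNA and can bind Mdm2 when free of ribosomes, had values of -0.05 and -0.04 (adjusted p = 0.852 and 0.911, edgeR). Along the exit tunnel, 6 of 8 tested genes had negative values, with a median of -0.07, and the group held both 1 lower and 1 higher gene. Rpl35, at the tunnel exit, stood at 235, 260.0 and 266 CPM in KO libraries, against 298, 309 and 251 CPM in WT libraries, a log2 fold change of -0.17 (adjusted p = 0.528, edgeR). Rpl4, a tunnel wall protein, had a value of -0.05, and Rpl17, another wall protein, is described further on.

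Other lower genes encode large subunit proteins outside these groups. Rpl28, found in eukaryotes and not in bacteria, stood at 148, 168 and 156 CPM in KO libraries, against 209.6, 202 and 165 CPM in WT libraries, a log2 fold change of -0.29 (adjusted p = 0.341, edgeR). Rpl27 stood at 65.5, 73.0 and 71.1 CPM in KO libraries, against 93.0, 98.8 and 67.2 CPM in WT libraries, a log2 fold change of -0.30. In both genes WT replicates 1 and 2 stood above every KO library, and WT replicate 3 lay within the KO range. Rpl27a stood at 161, 175 and 174 CPM in KO libraries, against 213, 206 and 176 CPM in WT libraries, a log2 fold change of -0.22. Rpl37, a zinc-binding protein, stood at 159.6, 180.2 and 172 CPM in KO libraries, against 209.7, 207 and 173 CPM in WT libraries, a log2 fold change of -0.20. The KO and WT libraries of Rpl27a touched without overlapping. Over all 13 lower genes, WT replicates 1 and 2 stood above every KO library in 13, and WT replicate 3 lay within the KO range in 10 and above it in 3. Their adjusted p-values from edgeR were 0.312 to 0.528.

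The paralogs and Rps19bp1 had negative values in 7 of 7 tested genes, and 0 passed an unadjusted p of 0.05. Rpl22l1, the paralog that can replace Rpl22, had a log2 fold change of -0.08 beside -0.10 for Rpl22 (adjusted p = 0.821 and 0.73, edgeR). Rps27l, a p53 target in human cells, had a value of -0.23 and Rpl36al of -0.11 (adjusted p = 0.691 and 0.752, edgeR). Rpl3l, which is best known from skeletal muscle and heart, had 2 to 15 counts per library and a value of -1.06 with an SE of 0.51. Rpl35al1 and Rps4y2 had values of -0.03 and -0.37. Rps4y2, like Rpl3l, had few counts, 14 to 38 per library.

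Several core genes were nearly empty in the table, which limits what can be said of them. Rps9 had 0 counts in all 6 libraries, Rplp2 had 5 to 9, Rpl37a 6 to 12, Rps6 14 to 27, Rpl8 21 to 33, and Rpl7a 20 to 85 counts. Rps9, Rplp2 and Rpl37a were not tested, nor were the paralogs Rpl39l, with 0 to 6 counts, and Rps9l1, with 0. By contrast, the 73 genes with a mean of at least 100 counts had 64 to 6665 counts per library. Ribosomal protein genes have many near-identical copies in mammalian genomes, and how the counting treated reads that fit several copies is not given in the sources used here. Rpl37a-ps1, named as a pseudogene of Rpl37a, had 365, 432 and 319 counts in KO libraries, against 379, 478 and 393 in WT libraries, a log2 fold change of -0.05 (adjusted p = 0.884, edgeR). Almost all reads of this pair were thus assigned to the copy, and the low core genes, Rps6 as the target of S6 kinase among them, are uncertain.

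Rpl17 went the other way from most of the family. It stood at 258, 260.2 and 277 CPM in KO libraries, against 222, 137 and 184 CPM in WT libraries, and every KO library lay above every WT library. WT replicate 2 was the lowest. The log2 fold change was 0.55 ± 0.17 (SE; past an unadjusted p of 0.05, adjusted p = 0.435, edgeR). Set against the mean log2 CPM of the other 79 tested genes, with 0 at the WT mean, Rpl17 lay at 0.74, 0.64 and 0.70 in KO libraries, against 0.21, -0.44 and 0.22 in WT libraries. The spread in KO libraries (0.69 ± 0.05, SD, n = 3) was smaller than that in WT libraries (0.00 ± 0.38, SD, n = 3). With 3 against 3 libraries, no exact permutation p goes below 0.1.

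A copy of Rpl17 moved in the opposite direction. RGD1359290 is named Rpl17-ps16 and annotated as a pseudogene by RefSeq in GRCr8, on chromosome 10, while Rpl17 lies on chromosome 18. It had 12, 25 and 14 counts in KO libraries, against 283, 534 and 268 counts in WT libraries. The log2 fold change was -4.29 ± 0.35 (SE; adjusted p = 0.00803, edgeR), and WT replicate 2, the lowest library for Rpl17, was the highest for the copy. Leaving out KO replicate 1 gave the copy a value of -4.13 and leaving out KO replicate 3 a value of -4.28, and neither passed in edgeR (adjusted p = 0.192 and 0.131). It took 0.429%, 0.704% and 0.524% of the summed counts of both genes in KO libraries, against 10%, 23.4% and 10.7% in WT libraries. Summed, the genes had 259, 262 and 279 CPM in KO libraries, against 247, 178 and 206 CPM in WT libraries. The sum still did not overlap between groups, and its log2 fold change was 0.34 ± 0.10 (SE; past an unadjusted p of 0.05, adjusted p = 0.341, edgeR), smaller than for Rpl17 alone. Reads of such close copies can be assigned to either, so the level of each gene alone is uncertain, and the part of read assignment in the difference was not tested.

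**Figure D3:**
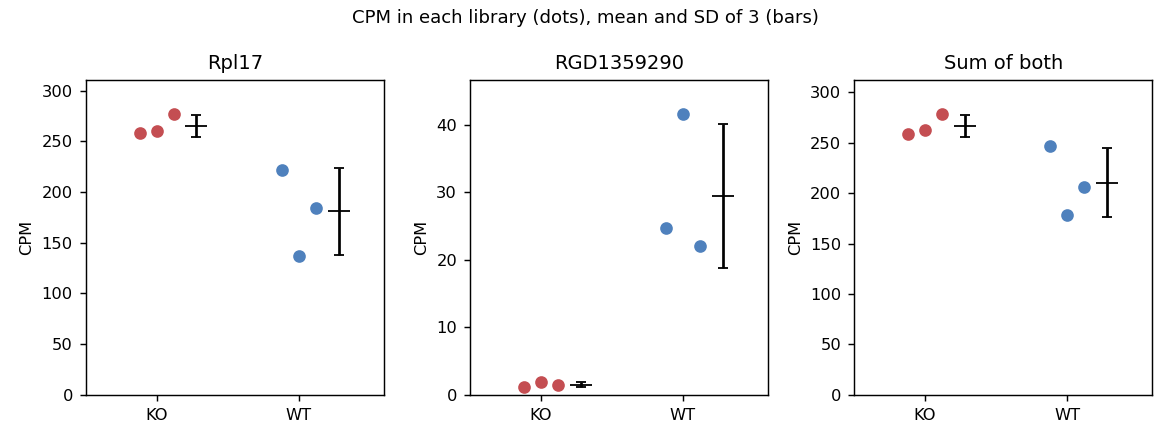
CPM (vertical axes, from 0) of Rpl17, of its copy RGD1359290 and of their sum in the KO and WT libraries, as dots, with the mean and SD of 3 libraries beside them. Rpl17 is higher and the copy lower in KO, and the sum lies at 259 to 279 CPM in KO and 178 to 247 CPM in WT libraries.

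Of the tested genes nearest Rpl17, Acaa2 alone passed an adjusted p of 0.05 in edgeR. In the gene order of chromosome 18 in GRCr8, the nearest tested gene on one side is Acaa2, a mitochondrial thiolase of fatty acid oxidation. It stood at 16.3, 15.8 and 15.2 CPM in KO libraries, against 25.6, 33.0 and 29.8 CPM in WT libraries, a log2 fold change of -0.90 with an SE of 0.11 (adjusted p = 0.0063, edgeR). The next, Myo5b, a myosin of vesicle transport, stood at 71.3, 78.8 and 75.9 CPM in KO libraries, against 86.8, 86.8 and 89.7 CPM in WT libraries, a log2 fold change of -0.22 with an SE of 0.07 (past an unadjusted p of 0.05, adjusted p = 0.341, edgeR). In both genes the KO libraries all lay below the WT libraries, as in 7.52% of all genes tested. Beyond these, Mbd1, a methyl-CpG binding protein, had a value of 0.15, and Cxxc1 and Mapk4 had 0.05 and 0.03. On the other side, RGD1562987 had a value of -0.05, Dym -0.06, Smad7, an inhibitor of TGF-beta signalling, -0.12, Ctif 0.07 and Zbtb7c -0.19. None of these 8 passed an unadjusted p of 0.05 (adjusted p = 0.552 to 0.946, edgeR). The groups did not overlap for Mbd1, higher in KO (against 7.19% of all genes), and Smad7, lower in KO (against 7.52%).

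Genes that share the work or the control of the ribosomal proteins were counted in the same way, from fixed lists. Fau, which encodes a ribosomal protein fused to a ubiquitin-like protein, and Rack1, a signalling scaffold on the small subunit, are ribosomal but fall outside the symbol rule. Their values were -0.16 and -0.11 on the log2 scale (adjusted p = 0.583 and 0.673, edgeR). Translation factors and other mRNAs with a TOP start had 15 of 22 negative values and a median of -0.02. At an unadjusted p, 1 gene was lower and 1 higher (4.55% each, against 5.15% and 4.19% of all genes). Vim, an intermediate filament, was the lower one at -0.24, and Gas5, a non-coding host of small nucleolar RNAs, the higher at 0.19. Ribosome biogenesis genes had 25 of 65 negative values and a median of 0.05. At an unadjusted p, 2 were lower and 2 higher (3.08% each, against the same shares of all genes). In neither list did the calls stand far above those of all genes. Dkc1, a pseudouridine synthase, and Eif6, which keeps the subunits apart, were lower at -0.38 and -0.21, and Las1l, of rRNA processing, and the kinase Riok2 were higher at 0.27 and 0.24.

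Mitochondrial ribosomal proteins, which form a separate ribosome, had 50 of 68 negative values, 5 lower and 0 higher genes (7.35%, against 5.15% of all genes), and a median of -0.05. Without WT replicate 3, 11 of these 68 were lower at an unadjusted p (against 8.93% of all genes in that fit) and the median was -0.09. Nuclear-encoded oxidative phosphorylation subunits had 74 of 81 negative values, 17 lower and 0 higher genes (21%), and a median of -0.12. Their mean log2 CPM, relative to the WT mean, was -0.22, -0.11 and -0.06 in KO libraries, against 0.11, 0.05 and -0.16 in WT libraries. The large subunit without Rpl17 gave -0.24, -0.09 and -0.07 in KO libraries, against 0.11, 0.05 and -0.15 in WT libraries. The libraries thus stood in the same order for oxidative phosphorylation and large subunit genes. With all 6 libraries, 0 of the oxidative phosphorylation genes passed an adjusted p of 0.05 in edgeR. Without WT replicate 3, 46 of them were lower at an unadjusted p (against 8.93% of all genes in that fit). In that fit 15 passed an adjusted p of 0.05 in edgeR (against 1.44% of all genes lower). The calls with any other library left out were not counted for this list. WT replicate 3 was the lowest WT library for the oxidative phosphorylation and mitochondrial ribosomal lists, so leaving it out widens their differences by construction.

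**Figure D4:**
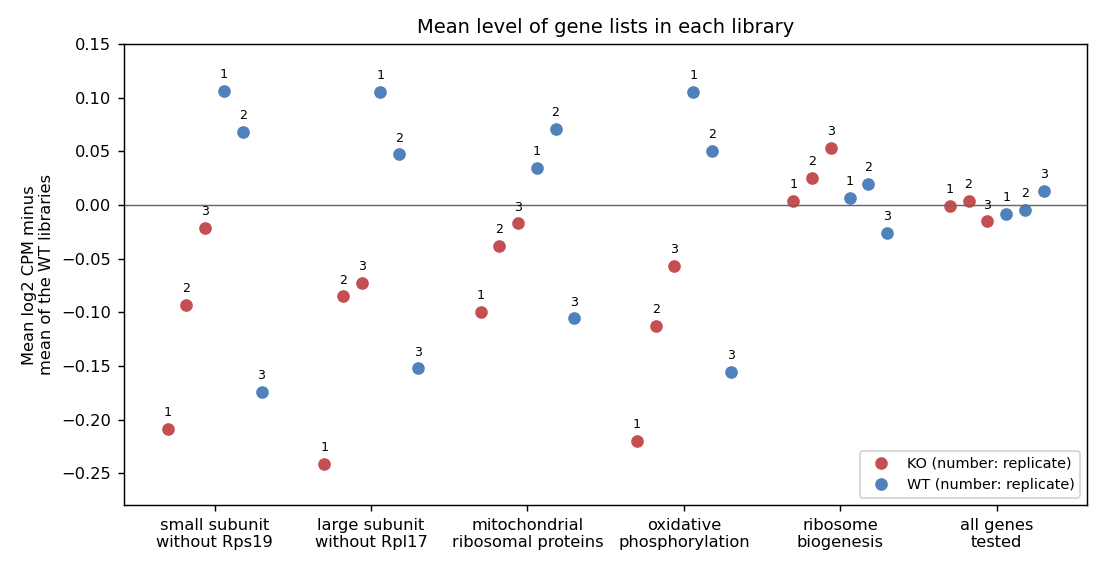
Mean log2 CPM of each gene list in each library, minus the mean of the WT libraries (vertical axis), with KO libraries in red left of WT libraries in blue and the replicate number above each dot. WT 3 lies among or below the KO libraries for the ribosomal, mitochondrial ribosomal and oxidative phosphorylation lists, and all 6 libraries lie close to 0 over all genes tested.

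Markers of cell types were counted in the same way. Markers of CA pyramidal and dentate granule neurons, the main neurons of the labelled tissue, had a summed level of 4408 to 4711 CPM in KO libraries, against 4347 to 5339 CPM in WT libraries, with 8 of 11 tested negative and 0 past an unadjusted p of 0.05. Without WT replicate 3, 5 of the 11 were lower at an unadjusted p (against 8.93% of all genes in that fit). In that fit 1 was higher (against 8.69%), and the median was -0.13 in place of -0.07. WT replicate 3 had the lowest summed level of these markers, so leaving it out widens the difference by construction. Oligodendrocyte and myelin markers had 10 of 10 negative values and 5 lower at an unadjusted p (against 49.5% and 5.15% of all genes), with a median of -0.28, and 0 of the 10 were at 0 counts. Their summed level was 10416 to 11911 CPM in KO libraries, against 13174 to 13908 CPM in WT libraries. For these markers WT replicate 3 lay with the other WT libraries, unlike its place for the ribosomal protein genes. For the CA pyramidal and dentate granule markers it was the lowest WT library, as for the ribosomal protein genes. The mean log2 CPM of those neuron markers, relative to the WT mean, was 0.05, -0.08 and -0.09 in KO libraries, against 0.13, 0.01 and -0.14 in WT libraries. Over all tested ribosomal protein genes it was -0.19, -0.08 and -0.05 in KO libraries, against 0.11, 0.05 and -0.17 in WT libraries. Astrocyte markers had 1 of 6 negative values and 1 higher at an unadjusted p, with a summed level of 5360.1 to 6188 CPM in KO libraries, against 4875 to 5598 CPM in WT libraries. Microglia markers had 6 of 6 negative values and 1 lower, at 310.5 to 348 CPM summed in KO libraries, against 317 to 373 CPM in WT libraries. Choroid plexus markers, of which 2 of 6 had enough counts to test, had 2 negative values and 1 lower, Ttr. Summed over all 6 markers, the level was 5.37 to 10.4 CPM in KO libraries, against 11.5 to 15.6 CPM in WT libraries, without overlap. Taken singly, 0 of the 2 tested genes had all KO libraries below all WT libraries (against 7.52% of all genes). Blood markers had 4 of 4 negative values, interneuron markers 4 of 6 and endothelial and mural markers 2 of 6, with 0 lower at an unadjusted p in these lists and 1 higher, in the endothelial and mural list. The part of cell composition in the ribosomal protein values was not tested.

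The number of lower genes depended on which libraries entered the test. Without WT replicate 3, 34 of the 80 genes were lower at an unadjusted p (against 8.93% of all genes) and 0 were higher (against 8.69%), the median was -0.15 in place of -0.09, and 14 passed an adjusted p of 0.05 in edgeR, where 1.44% of all genes were lower at that threshold. The small subunit then had 14 lower genes and a median of -0.16, and the large subunit 20 lower genes and a median of -0.15. Among the genes past the adjusted threshold were Rps7, Rps15, Rps20, Rps23, Rps28, Rps29, Rpl10a, Rpl27, Rpl27a, Rpl28, Rpl37, Rpl41 and Rplp1, and the adjusted p-values of all 14 were 0.011 to 0.0323. WT replicate 3 stood out in these same data and lay below the WT mean for 77 of the 80 genes. Leaving it out therefore raises the WT mean of these genes and widens the difference by construction. The rise in calls is thus no separate evidence of a difference between the groups. Without KO replicate 1, WT replicate 1 or WT replicate 2, only 5 were lower each time (against 3.16%, 4.07% and 3.17% of all genes), and the median was -0.05, -0.05 and -0.07. Without KO replicate 2 or KO replicate 3, 16 and 13 were lower (against 4.89% and 3.91%), with medians of -0.09 and -0.13. The large subunit median was -0.04 without KO replicate 1 and -0.04 without WT replicate 1. Rpl17 kept a value of 0.39 to 0.73 with any 1 library left out, and lost its unadjusted call without WT replicate 3 (0.57 ± 0.24, SE; adjusted p = 0.369, edgeR).

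**Figure D5:**
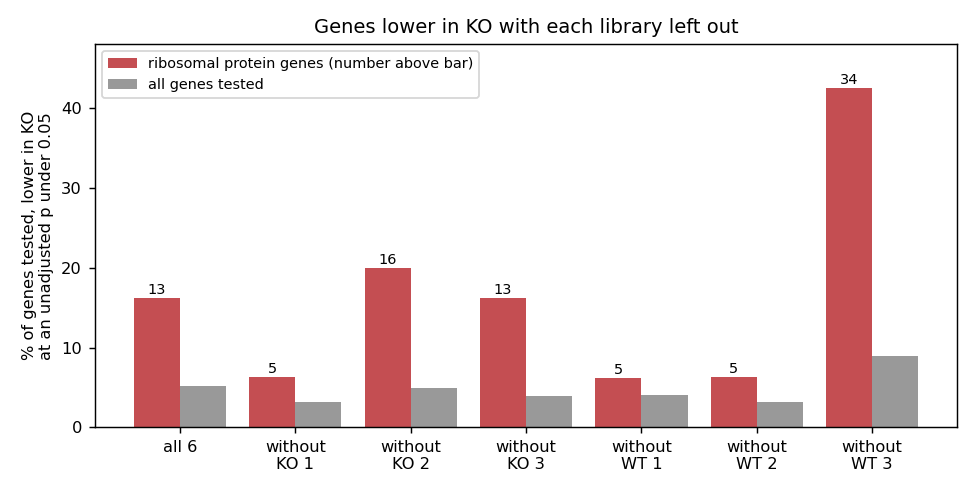
Percent of genes lower in KO at an unadjusted p under 0.05 in edgeR (vertical axis, from 0) for ribosomal protein genes and for all genes tested, with all 6 libraries and with each left out. The number of ribosomal protein genes stands above its bar, and it is 5 without KO 1, WT 1 or WT 2 and 34 without WT 3.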

How the data were processed

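Hippocampal RNA of 3 Fmr1 KO and 3 WT rats was sequenced, 1 library per rat. Per the paper's methods, the authors used a NEBNext Ultra II kit, single-end reads, FastQC for quality, HISAT2 for alignment to rn6, and htseq-count in its intersection mode for gene counts. Versions, annotation and strand setting are not given in the sources used here. The values used are raw counts as deposited, whole numbers without normalization. A second deposited table, the authors' own DESeq2 comparison, was not used. Every count column was assigned by its label, with 0 columns over.

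The tests used edgeR 4.0.16 under R 4.3.3, with filterByExpr (minimum count 10), TMM scaling, a robust quasi-likelihood fit on genotype, and Benjamini-Hochberg adjustment over 11800 genes. Tests were two-sided, and p-values reflect the spread between rats. Log2 CPM used a prior count of 2. The script was tested on simulated data. Lists are described by counts and medians, with no test. Alternatives were DESeq2 1.42.0, its size factors in edgeR, no filter, TMM without the ribosomal protein genes, a replicate block and leaving out each library.

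Genes named singly were Rpl17, every member at an unadjusted p under 0.05, the most and least abundant, members of role lists, paralogs, untested members, and the copy and neighbours of Rpl17. Genes of the other lists (Vim, Gas5, Dkc1, Eif6, Las1l, Riok2, Ttr), and Rpl22, were named after their values were seen. The members and lists were chosen with earlier results of these data known. RefSeq's GRCr8 annotation, another build than rn6, gave names (83 members by symbol, 2 by synonym), gene order and start windows. A few genes that this rule would name are not reported here singly, but are in every count, median and range.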

Additional observations from a re-analysis of the deposited data

How the results depend on the processing

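Directions kept under every alternative run: no median, neither Rpl17 value and none of the 13 lower genes turned sign. The median over all members ran from -0.15 to -0.05 with 1 library left out. DESeq2, DESeq2's size factors and TMM without the ribosomal protein genes each kept the same 13 genes lower, and no filter and the replicate block kept 12 of them. With 1 library left out, the number of lower genes ran from 5 to 34, of higher genes from 0 to 2, and of genes past an adjusted p of 0.05 from 0 to 14, the highest number of lower and of adjusted calls coming without WT replicate 3. The number of the same 13 genes still lower was 5 without KO replicate 1, WT replicate 1 or WT replicate 2, 11 without KO replicate 2, 9 without KO replicate 3 and 13 without WT replicate 3. The summed Rpl17 value ran from 0.24 to 0.47 and passed without WT replicate 1 (0.47, adjusted p = 0.0381 from edgeR). Over all alternatives the adjusted p was 0.0381 to 0.824 for the sum and 0.0608 to 0.842 for Rpl17. RGD1359290 missed an adjusted p of 0.05 with no filter (0.0544), without KO replicate 1 (0.192) and without KO replicate 3 (0.131), and DESeq2 gave it no adjusted p. The cause was not tested.

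Same-numbered libraries of the groups did not deviate together (correlations across genes of 0.03, -0.01 and -0.08). With 3 libraries a group, this cannot exclude that the numbers pair libraries. Of all genes, 0.144% passed an adjusted p of 0.05 in edgeR with the replicate number as a block, against 0.0254% without it. With the replicate number as a block, 15 genes were lower (against 5.12% of all genes), 1 was higher (against 4.28%) and 0 passed an adjusted p of 0.05, the medians were -0.09 (all), -0.09 (small) and -0.08 (large), Rpl17 was at 0.58 (adjusted p = 0.273 from edgeR) and the sum at 0.35.

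The median SE of a member's log2 fold change was 0.08, close to the size of the median difference, so single members near the median could not be told from 0 with 3 libraries a group.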
